A study of Mus musculus with 8 samples.

Results

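Collagens were examined as a gene family in the skeletal muscle of aged mice lacking *Grsf1*. A gene was included if its RefSeq symbol named a collagen chain and an array probe carried the accession of one of its transcripts. This rule gave 44 collagen genes of 22911 genes named on the array, represented by 67 of 56605 probes and by 85 of 59305 non-control spots. They were divided by type into 11 fibrillar genes (types I, II, III, V, XI, XXIV and XXVII), 8 basement membrane genes (types IV, XV and XVIII) and 25 others. The rule itself uses names only.

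The arrays compared 3 Grsf1cKO mice with 3 WT mice, all male and 17 months old, and asked which RNAs in muscle change when GRSF1, a mitochondrial RNA-binding protein, is absent. Grsf1cKO mice were made from the Grsf1tm1a(EUCOMM)Wtsi allele. FLPo mice were used to remove its LacZ and Neo cassettes, which left exons of *Grsf1* flanked by LoxP sites, and Myf5Cre mice were used to delete these exons. Myf5Cre acts in cells of the myogenic lineage, so the other cells of the muscle were not the target of the deletion. Whether the WT mice carried a floxed allele or the Cre is not given in the sources used here. The labels name the muscle as the vastus intermedius and the study's methods as the rectus femoris, both of the quadriceps.

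Collagens are secreted proteins built from 3 chains wound into a triple helix, and a given type may combine chains from different genes. Fibrillar collagens give the sheaths around muscle fibers and the tendon their tensile strength, type IV collagen forms the mesh of the basement membrane that wraps each fiber, and type VI collagen forms beaded filaments next to it. In muscle most collagen mRNA comes from resident fibroblasts and fibro-adipogenic progenitors, whereas the fibers themselves contribute few chains. A total muscle RNA sample mixes these cells, and fewer cells of a type cannot be told apart from less RNA per cell.

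*Grsf1* was first examined on every array as a check of the labels. Its log2 signal was 12.02 to 12.15 on the Grsf1cKO arrays and 14.25 to 14.32 on the WT arrays. The genotypes did not overlap, and the difference was -2.19 ± 0.08 (SE) on the log2 scale (limma, adjusted *p* = 0.00328). The 10 muscle fiber markers were all well above background in all 6 mice. Of 8 arrays, 2 were repeats, of WT 1 and of Grsf1cKO 1, and repeats were averaged with the first array of the same mouse. The repeat of Grsf1cKO 1 stood apart, with 88.9% of spots well above background against 66.3% to 73.1% on the other 7 arrays. WT 2 and the first run of WT 1 shared slide 1, and slide 2 carried the remaining 6 arrays. No spot was saturated on any array.

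Signals are given as log2 of the quantile-normalized processed signal, 1 value per mouse. Of the 67 collagen probes, 61 were tested, which required a signal well above background in 3 or more of the 6 mice. These represented 43 of the 44 genes, and 39 genes were above background in all 6 mice. The gene not tested was *Col10a1*, the collagen of growth plate cartilage, whose probe was above background in 1 Grsf1cKO mouse and in no WT mouse. For each gene the brightest tested probe was used. Second tested probes of the same gene are counted by sign further on, and values are given for some of them.

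No collagen probe passed the criteria for a changed RNA (fold change over 1.5, unadjusted *p* under 0.01 and adjusted *p* under 0.2 by limma), by which 3 of 38886 probes tested were called, or 0.00771%. A *z*-test of the kind named in the methods was run on the same log2 values with these criteria, without the study's variance filter and its limits on *z*-ratio and mean score, and it called 0 collagen probes and 379 probes in all. By limma the smallest adjusted *p* among collagen probes was 0.996. By the *z*-test 1 collagen probe had an adjusted *p* under 0.2, a second probe of *Col9a1* above background in 5 mice (adjusted *p* = 0.0255), and its fold of 0.835 missed the 1.5-fold criterion. At an unadjusted *p* under 0.05 there were 2 collagen probes higher in Grsf1cKO and 1 lower, of 61. Over all probes tested these shares were 1.29% higher and 2.96% lower, and they were 2.57% and 0.738% when arrays were scaled by their 75th percentile instead. Genotypes did not overlap for 3 collagen probes with the Grsf1cKO mice higher and for 1 with them lower, against 3.08% and 6.27% of all probes. At the level of genes, 1 of 43 (*Col9a3*) was higher and 0 were lower at that *p*, but *Col9a3* passed the detection filter through the Grsf1cKO mice alone, so its count is no evidence of a difference. Genotypes overlapped for all 43 genes with repeats averaged in, whereas on the first arrays alone the Grsf1cKO mice were higher without overlap for 3 genes (*Col6a4*, *Col12a1* and *Col26a1*) and lower for 0. Over all probes those shares were 3.86% and 5.28% on the first arrays. *Col6a4* was above background in 3 Grsf1cKO mice and in 1 WT mouse.

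The differences were small and mostly of 1 sign. The log2 fold change, Grsf1cKO over WT, was positive for 33 of the 43 genes, whereas 42.5% of all probes tested had a positive value. The 33 include *Col9a3*, which passed the detection filter through the Grsf1cKO mice alone. With detection required in all 6 mice, the value was positive for 29 of 39 genes. By probe it was positive for 44 of the 61 collagen probes tested. The count of genes was 35 with 75th percentile scaling, 28 with the deposited *z*-scores and 29 without Grsf1cKO 3. In these settings the median over all probes was 0.01, -0.05 and -0.02, in that order, and the 42.5% applies to the main fit only. In the main fit the median log2 fold change over the 43 genes was 0.13, and over all probes it was -0.03. By class the median was 0.15 for the 11 fibrillar genes, 0.03 for the 8 basement membrane genes and 0.19 for the 24 other genes tested. With detection required in all 6 mice, the median of the other genes was 0.12. For single genes, the median SD within a genotype was 0.231 for the collagen genes and 0.181 for all probes tested. The median deviation of a class in a mouse varied within genotypes with an SD of 0.249 for the fibrillar, 0.0745 for the basement membrane and 0.0737 for the other genes. Leaving out a single mouse turned the sign of the log2 fold change for 15 of the 43 genes. For 22 genes the 95% confidence interval of the brightest tested probe lay within a 1.5-fold change in either direction, so that larger differences were outside that interval. For the other 21 genes a change of 1.5-fold could not be set aside at 3 mice per genotype.

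**Figure D1:**
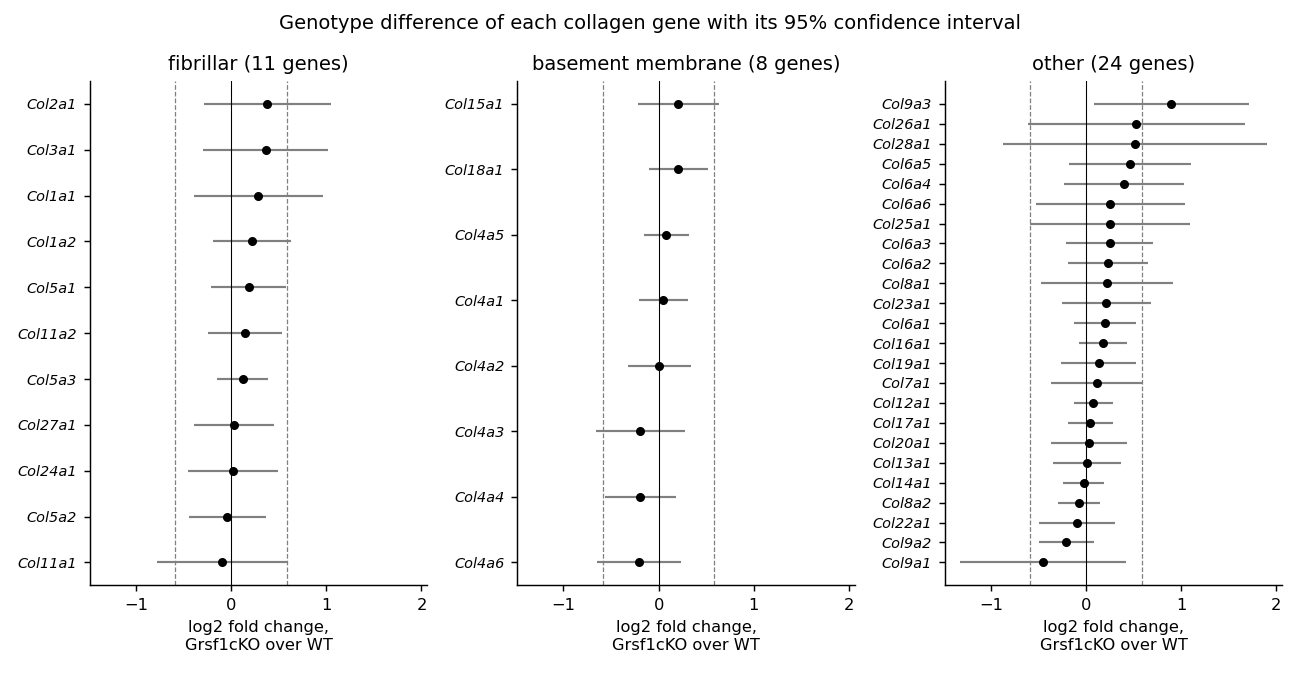
Log2 fold change of the brightest tested probe of each of 43 collagen genes (points) with the 95% confidence interval from limma (bars), in 3 panels by class, with dashed lines at a 1.5-fold change in either direction. All intervals include 0 except that of *Col9a3*, whose WT arrays were all below background, so that its point and interval do not measure a difference.

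Much of the difference in means came with a single mouse. Grsf1cKO 3 had the highest signal of the 6 mice for 19 of 43 genes, which included 8 of 11 fibrillar genes, 11 of 24 other genes and 0 of 8 basement membrane genes. The share over all probes was not computed, so these counts are not shown to be particular to collagens. In lists described further on, that mouse was highest for 10 of 18 fibril-associated matrix proteins, 9 of 27 synthesis genes and 0 of 8 pericyte and smooth muscle markers. A WT mouse was highest for 7 of the 8 basement membrane genes. Without Grsf1cKO 3, the median log2 fold change over the 43 genes was 0.06, that of the fibrillar genes was 0.04 and that of the other genes was 0.07.

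Type I collagen, the main fibrillar collagen of tendon and of the connective tissue around muscle, is made of chains encoded by *Col1a1* and *Col1a2*. *Col1a1* had log2 signals of 14.09, 14.09 and 14.95 in Grsf1cKO mice 1, 2 and 3. In WT mice 1, 2 and 3 they were 14.40, 14.01 and 13.86. Grsf1cKO 3 was the highest mouse and WT 1 the second, and the other Grsf1cKO mice lay among the WT mice. The difference of means was 0.29 ± 0.28 (SE), with a 95% interval from -0.39 to 0.97, and an exact permutation test over the 6 mice gave *p* = 0.5. The difference was 0.001 without Grsf1cKO 3, 0.17 without WT 3, 0.43 without either of the other Grsf1cKO mice and 0.44 without WT 1. *Col1a2* signals were 15.83, 16.10 and 16.41 in the Grsf1cKO mice and 16.005, 15.91 and 15.77 in the WT mice. Grsf1cKO 1 was below 2 of the WT mice, and the difference was 0.22 (95% interval from -0.19 to 0.63, exact permutation *p* = 0.3). It was 0.07 without Grsf1cKO 3 and 0.36 without Grsf1cKO 1.

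*Col3a1* encodes type III collagen, which forms thin fibrils together with type I. Its signals were 14.69, 14.73 and 15.45 in the Grsf1cKO mice and 14.98, 14.41 and 14.38 in the WT mice. The order of the mice was that of *Col1a1*, with Grsf1cKO 3 first and WT 1 second. The difference of 0.36 ± 0.27 (SE) had a 95% interval from -0.29 to 1.02 (exact permutation *p* = 0.3), and it ran from 0.12 without Grsf1cKO 3 to 0.56 without WT 1.

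These values were also computed with the slide taken into account. With the slide as a block the log2 fold change was 0.27 for *Col1a1*, 0.18 for *Col1a2* and 0.29 for *Col3a1*. On slide 2 alone, which held all Grsf1cKO arrays, WT 3 and the repeat of WT 1, it was 0.25, 0.20 and 0.26. Slide 1 held WT arrays only and gave no value of its own, so an effect of the slide could be judged from WT arrays only. Slide 2 alone also left out WT 2, and without WT 2 on either slide the values were 0.25, 0.23 and 0.27.

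Upstream sequences are shown for *Col1a2* and *Col3a1*, whose signals followed that of *Col1a1* across the mice, and for *Col6a1* and *Col6a3*, a second such pair that is described further on. Each is the 250 bases before the gene's start in RefSeq (GRCm38.p6), read 5′ to 3′ in the direction of the gene. Capitals mark matches on either strand to 3 motifs. The first searched was CCAAT, the letters of the CCAAT box. The second was GGGCGG, the core letters of the GC box. The third was TATAAA, the letters of the TATA box. The *Col1a2* stretch is chr6:4505368-4505617 (plus strand), that of *Col3a1* chr1:45311288-45311537 (plus strand), that of *Col6a1* chr10:76726045-76726294 (minus strand) and that of *Col6a3* chr1:90843972-90844221 (minus strand).
Col1a2: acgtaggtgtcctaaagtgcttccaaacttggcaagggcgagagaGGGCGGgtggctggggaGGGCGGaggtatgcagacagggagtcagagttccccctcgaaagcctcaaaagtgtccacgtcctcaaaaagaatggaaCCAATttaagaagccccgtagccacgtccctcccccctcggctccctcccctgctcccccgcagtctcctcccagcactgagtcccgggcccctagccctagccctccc
Col3a1: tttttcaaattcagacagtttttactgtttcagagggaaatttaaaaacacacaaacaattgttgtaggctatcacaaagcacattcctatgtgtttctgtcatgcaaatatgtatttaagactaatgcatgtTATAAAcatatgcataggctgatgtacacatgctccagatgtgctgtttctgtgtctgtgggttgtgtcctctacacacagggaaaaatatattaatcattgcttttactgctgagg
Col6a1: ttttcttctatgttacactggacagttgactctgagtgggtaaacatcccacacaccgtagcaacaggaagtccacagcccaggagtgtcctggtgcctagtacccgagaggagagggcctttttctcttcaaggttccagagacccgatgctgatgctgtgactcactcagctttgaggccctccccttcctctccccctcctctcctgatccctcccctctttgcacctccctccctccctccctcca
Col6a3: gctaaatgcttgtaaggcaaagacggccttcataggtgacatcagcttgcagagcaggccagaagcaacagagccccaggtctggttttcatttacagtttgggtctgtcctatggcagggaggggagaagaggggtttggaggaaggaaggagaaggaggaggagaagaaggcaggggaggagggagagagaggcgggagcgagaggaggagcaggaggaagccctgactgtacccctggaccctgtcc

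The *Col1a2* stretch holds 1 CCAAT box motif that begins 109 bases before the start, and GC box motifs beginning 205 and 188 bases before it. The *Col3a1* stretch holds 1 TATA box motif beginning 117 bases before the start and neither of the other motifs. None of the motifs is in the stretches of *Col6a1* and *Col6a3*, which says nothing about the factors that bind there. In 32851 promoters of the RefSeq table, stretches of the same length hold the CCAAT box motif in 33.8%, the GC box motif in 32.7% and the TATA box motif in 12.4%. Of the 44 collagen genes 35 have an entry, with the CCAAT box motif in 13 genes, the GC box motif in 21 and the TATA box motif in 5. *Col1a1* has no entry.

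Type V collagen is built into type I fibrils and helps to set their width. *Col5a1* signals were 11.85, 12.09 and 12.38 in the Grsf1cKO mice and 12.09, 11.89 and 11.80 in the WT mice, a difference of 0.18 (95% interval from -0.21 to 0.58). *Col5a2* signals were 8.57, 8.53 and 8.86 against 8.99, 8.54 and 8.55, with WT 1 the highest of the 6 mice, and the difference was -0.04 (interval from -0.45 to 0.37). *Col5a3* signals were 12.99, 13.09 and 13.17 against 13.12, 12.91 and 12.85, a difference of 0.12 (interval from -0.14 to 0.39). On these brightest probes all 3 genes overlapped between genotypes, and all 3 intervals lie within a 1.5-fold change. The difference of *Col5a1* was 0.05 without Grsf1cKO 3, that of *Col5a3* was 0.07 without WT 3, and that of *Col5a2* was 0.11 without WT 1. A second *Col5a3* probe, above background in all 6 mice, gave 0.25 (interval from -0.41 to 0.92), which reaches past a 1.5-fold change. On that probe the arrays of Grsf1cKO 1 read 6.11 and 7.67, and the first arrays alone gave 0.005.

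Among the other fibrillar genes, *Col2a1* (the main collagen of cartilage) had a log2 fold change of 0.38 (95% interval from -0.29 to 1.05), the highest of the class, and its highest mouse was Grsf1cKO 3 at 9.33. It was 0.11 without Grsf1cKO 3 and 0.24 without WT 2. *Col11a1*, which encodes a chain built into cartilage fibrils, had signals of 7.94, 7.82 and 8.77 in the Grsf1cKO mice and of 8.44, 8.39 and 7.98 in the WT mice. Grsf1cKO 3 was the highest and the other Grsf1cKO mice were the lowest of the 6. The difference was -0.09 (interval from -0.78 to 0.60). The remaining fibrillar genes, *Col11a2*, *Col24a1* and *Col27a1*, had log2 fold changes of 0.15, 0.02 and 0.03. On the first arrays alone *Col11a2* gave -0.008 and *Col27a1* 0.17. *Col11a2* gave 0.04 without Grsf1cKO 3 and 0.30 without Grsf1cKO 2. Second probes of *Col24a1* and *Col11a2* were above background in all 6 mice. That of *Col24a1* gave 0.87 (interval from -0.60 to 2.34), with Grsf1cKO 2 highest at 7.18. That of *Col11a2* gave -0.26 (interval from -0.66 to 0.14). On the first arrays alone the *Col11a2* second probe gave -0.39, with the Grsf1cKO mice lower without overlap.

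**Figure D2:**
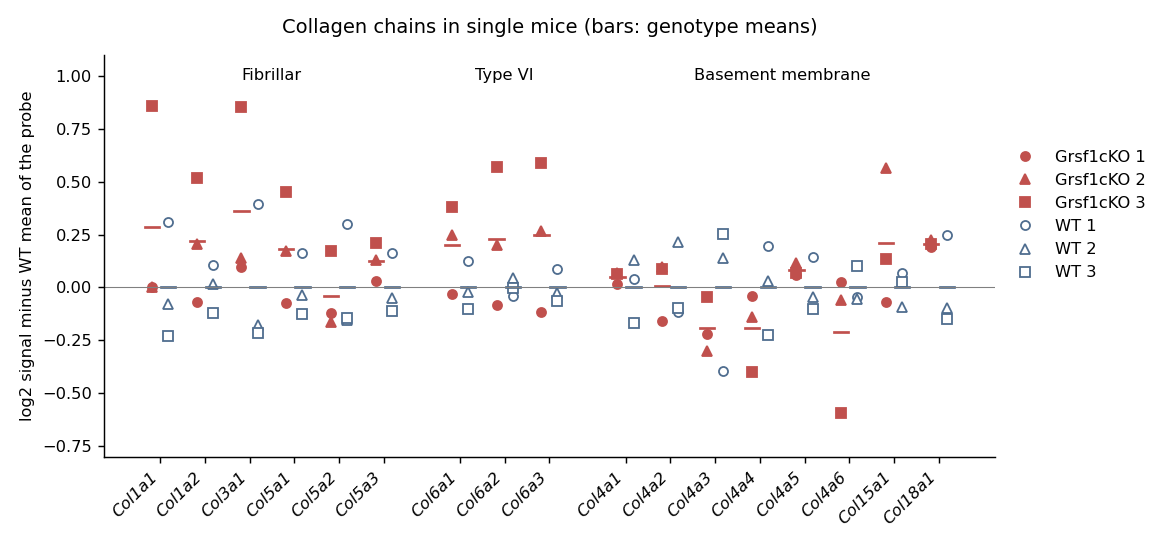
Log2 signal of each mouse minus the WT mean of the same probe for 6 fibrillar, 3 type VI and 8 basement membrane genes; filled symbols are Grsf1cKO mice, open symbols are WT mice, and short bars are genotype means (n = 3 mice each). Grsf1cKO 3 (filled squares) is the highest mouse for *Col1a1*, *Col1a2* and *Col3a1* and for the 3 type VI chains, while the *Col4a1* values lie close together.

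Type IV collagen of most basement membranes is made of the chains encoded by *Col4a1* and *Col4a2*, which lie head to head on the chromosome. *Col4a1* signals were 13.87, 13.92 and 13.92 in the Grsf1cKO mice and 13.89, 13.99 and 13.69 in the WT mice. *Col4a2* signals were 12.56, 12.82 and 12.81 against 12.61, 12.94 and 12.62. In both genes WT 2 was the highest mouse. The log2 fold changes were 0.05 (95% interval from -0.21 to 0.30) for *Col4a1* and 0.009 (interval from -0.32 to 0.34) for *Col4a2*, both of which exclude a change of 1.5-fold. The sign of these values changed in some of the alternatives tried.

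The other type IV chains form networks in fewer tissues, such as the kidney glomerulus. *Col4a3* signals were 5.08, 4.996 and 5.25 in the Grsf1cKO mice and 4.90, 5.44 and 5.55 in the WT mice (difference -0.19). *Col4a4* signals were 8.23, 8.12 and 7.86 against 8.46, 8.29 and 8.04 (difference -0.19). For *Col4a4* only WT 3 lay below any Grsf1cKO mouse. *Col4a5* signals were 8.91, 8.97 and 8.92 against 8.999, 8.81 and 8.76 (difference 0.08). *Col4a6* signals were 8.02, 7.94 and 7.40 against 7.95, 7.94 and 8.10 (difference -0.21), and Grsf1cKO 3 was the lowest of the 6 mice. Without Grsf1cKO 3 the *Col4a6* difference was -0.02 and that of *Col4a4* was -0.09. That of *Col4a3* was -0.39 without WT 1 and -0.06 without WT 3. None of the 4 genes separated the genotypes, and the 95% intervals of *Col4a3* and *Col4a6* reached -0.65. On the first arrays alone the differences of these 2 genes were -0.02 and -0.12.

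Types XV and XVIII are basement membrane collagens that carry glycosaminoglycan chains. *Col15a1* signals were 7.03, 7.66 and 7.23 in the Grsf1cKO mice and 7.17, 7.01 and 7.13 in the WT mice. Here Grsf1cKO 2 was the highest mouse, and the difference was 0.21 (95% interval from -0.22 to 0.63). Without that mouse it was 0.03, and without Grsf1cKO 1 it was 0.35. *Col18a1* signals were 10.83, 10.86 and 10.84 against 10.89, 10.54 and 10.49. The Grsf1cKO mice lay close together and WT 1 was the highest, with a difference of 0.21 (interval from -0.10 to 0.52). It was 0.33 without WT 1 and 0.13 without WT 3.

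Type VI collagen, whose chains are mutated in Ullrich and Bethlem muscle disease, is assembled from the products of *Col6a1*, *Col6a2* and *Col6a3*. *Col6a1* signals were 14.32, 14.60 and 14.73 in the Grsf1cKO mice and 14.48, 14.33 and 14.25 in the WT mice. *Col6a2* signals were 10.67, 10.96 and 11.32 against 10.71, 10.80 and 10.75. *Col6a3* signals were 12.99, 13.38 and 13.70 against 13.20, 13.08 and 13.05. In all 3 genes Grsf1cKO 3 and then Grsf1cKO 2 were the highest of the 6 mice, and Grsf1cKO 1 lay among the WT mice (*Col6a1*) or below them (*Col6a2* and *Col6a3*). The log2 fold changes were 0.20, 0.23 and 0.25, with 95% intervals from -0.13 to 0.53, from -0.19 to 0.65 and from -0.21 to 0.70. Exact permutation *p* values were 0.3, 0.4 and 0.4. Without Grsf1cKO 3 the differences were 0.11, 0.06 and 0.07. Without Grsf1cKO 1 they were 0.31, 0.38 and 0.43, with an adjusted *p* of 0.984 by limma. With the slide as a block the value of *Col6a1* was 0.18, and on slide 2 alone it was 0.18.

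The genes *Col6a4*, *Col6a5* and *Col6a6* encode further type VI chains. *Col6a4* signals were 4.32, 4.99 and 5.08 in the Grsf1cKO mice and 4.70, 4.06 and 4.44 in the WT mice, and its probe was above background in all 3 Grsf1cKO mice but in 1 WT mouse. *Col6a5* signals were 8.13, 7.71 and 7.19 against 7.30, 7.40 and 6.94. *Col6a6* signals were 5.44, 4.64 and 5.34 against 5.40, 4.42 and 4.82. Grsf1cKO 3 and then Grsf1cKO 2 were the highest for *Col6a4*, as for the 3 main chains, whereas Grsf1cKO 1 was the highest for *Col6a5* and *Col6a6*. The log2 fold changes were 0.40, 0.46 and 0.26, and all of their 95% intervals included 0. *Col6a4* gave 0.23 without WT 2 and 0.64 without Grsf1cKO 1. *Col6a5* gave 0.23 without Grsf1cKO 1 and 0.70 without Grsf1cKO 3 (limma, adjusted *p* = 0.820). *Col6a6* gave 0.03 without WT 2 and 0.52 without WT 1. On the first arrays alone *Col6a4* gave 0.56 and *Col6a6* 0.13.

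Collagens of the FACIT group bind to the surface of fibrils rather than forming fibrils. *Col12a1*, expressed in muscle and tendon sheaths, had signals of 10.10, 10.12 and 10.15 in the Grsf1cKO mice and of 10.13, 9.97 and 10.04 in the WT mice. *Col14a1*, a related chain, had signals of 8.14, 8.04 and 8.23 against 8.20, 8.12 and 8.15. *Col22a1*, the collagen of the myotendinous junction, had signals of 13.34, 13.36 and 13.12 against 13.54, 13.05 and 13.52. The log2 fold changes of *Col12a1* and *Col14a1* were 0.08 (95% interval from -0.13 to 0.28) and -0.03 (interval from -0.24 to 0.19). The arrays of Grsf1cKO 1 read 7.88 and 8.41 for *Col14a1*, whose difference was -0.14 on the first arrays alone. A second *Col12a1* probe gave -0.45 (interval from -0.91 to 0.01). On that probe the arrays of Grsf1cKO 1 read 6.06 and 4.64, and the first arrays alone gave -0.25. For *Col22a1* the difference was -0.09 (interval from -0.49 to 0.31), and it was -0.26 without WT 2 and -0.0086 without WT 1. A second *Col22a1* probe, above background in all 6 mice, gave 0.22 (interval from -0.38 to 0.81). On that probe the arrays of Grsf1cKO 1 read 6.91 and 8.87, and the first arrays alone gave -0.09.

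Type IX collagen is a FACIT collagen known from cartilage. *Col9a3* signals were 4.56, 5.39 and 4.91 in the Grsf1cKO mice and 3.88, 3.62 and 4.67 in the WT mice, and WT 3 was above Grsf1cKO 1. The probe was above background in all 3 Grsf1cKO mice and not well above background on any WT array. The probe was tested only because the Grsf1cKO mice passed the detection filter (limma, adjusted *p* = 0.996), and after normexp background correction its log2 fold change was 0.10. A second *Col9a3* probe was below background on every array. *Col9a1* signals were 8.30, 7.53 and 7.30 against 8.48, 7.55 and 8.44, and WT 2 lay among the Grsf1cKO mice (difference -0.45, 95% interval from -1.32 to 0.42). The difference was -0.74 without Grsf1cKO 1 and on slide 2 alone, -0.75 without WT 2, -0.29 without WT 1 and -0.25 without Grsf1cKO 3. *Col9a2*, which encodes the remaining chain, had a log2 fold change of -0.21. It was -0.13 without Grsf1cKO 3 and -0.30 without Grsf1cKO 2.

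Transmembrane collagens are anchored in the plasma membrane, and types XIII and XXV have roles at the neuromuscular junction and in muscle innervation. *Col13a1* signals were 7.80, 8.06 and 7.79 in the Grsf1cKO mice and 8.05, 7.63 and 7.93 in the WT mice (difference 0.01, 95% interval from -0.34 to 0.37). *Col25a1* signals were 6.29, 5.16 and 5.85 against 5.04, 5.65 and 5.87 (difference 0.25, interval from -0.59 to 1.09). On the brightest probe the interval of *Col13a1* lies within a 1.5-fold change, whereas that of *Col25a1* does not. A second *Col13a1* probe, above background in all 6 mice, gave 0.20 (interval from -0.44 to 0.84), and 0.06 on the first arrays alone. The arrays of Grsf1cKO 1 read 5.45 and 7.14 for *Col25a1*, and on the first arrays alone its difference was -0.02. It was -0.01 without Grsf1cKO 1 and 0.55 without Grsf1cKO 2. The other transmembrane genes, *Col17a1* and *Col23a1*, had log2 fold changes of 0.04 and 0.21. Their second tested probes gave -0.29 and -0.05, and for *Col23a1* the brighter probe gave 0.05 without WT 2 and 0.40 without WT 3.

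Of the other genes, *Col26a1* and *Col28a1* had log2 fold changes of 0.53 and 0.51, with wide 95% intervals (from -0.61 to 1.67 and from -0.87 to 1.90). *Col26a1* signals ran from 5.95 in Grsf1cKO 1 to 7.87 in Grsf1cKO 3, with WT values of 6.20 to 6.55. The 5.95 is the mean of 6.59 on the first array and 5.31 on the repeat, and on the first arrays alone all Grsf1cKO mice lay above the WT mice (0.75). A second *Col26a1* probe, above background in all 6 mice, gave -0.08 (-0.20 on the first arrays), and *r* between the 2 probes over the 6 mice was -0.803. The first probe gave 0.07 without Grsf1cKO 3 and 1.02 without Grsf1cKO 1. *Col28a1* signals were 4.62, 5.76 and 5.91 in the Grsf1cKO mice and 5.49, 3.80 and 5.45 in the WT mice, and the difference was -0.04 without WT 2, -0.07 on slide 2 alone and 0.92 without Grsf1cKO 1. *Col8a1*, a short-chain collagen of blood vessels, read 11.91 in Grsf1cKO 3 and between 10.83 and 11.22 in the other mice. The log2 fold changes of *Col7a1*, *Col8a1*, *Col8a2*, *Col16a1*, *Col19a1* and *Col20a1* ranged from -0.07 to 0.22. *Col8a1* gave -0.09 without Grsf1cKO 3 and 0.39 without Grsf1cKO 2. *Col7a1* gave 0.32 without WT 2 and on slide 2 alone, and -0.03 without WT 3.

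For 18 genes a second probe was also tested, and its log2 fold change had the same sign as that of the brighter probe in 10 genes and the opposite sign in 8. Both probes of *Col1a1* gave the same answer, 0.29 and 0.28, and followed each other over the mice (*r* = 0.999). All 4 collagen probes for which the genotypes did not overlap were dimmer second probes, and on the first arrays alone only that of *Col6a5* stayed without overlap. The second *Col11a1* probe had signals of 5.08, 4.77 and 4.92 in the Grsf1cKO mice and of 4.76, 4.58 and 4.25 in the WT mice, a difference of 0.39, while the brighter probe gave -0.09. For *Col6a3* the second probe gave 0.40 with Grsf1cKO 1 highest at 8.70, while on the brighter probe Grsf1cKO 1 was the lowest of the 6 mice. That 8.70 averages 7.64 on the first array and 9.77 on the repeat, and the first arrays alone gave 0.04. The second probe of *Col6a5* gave 1.07, and it was above background in 2 Grsf1cKO mice and 1 WT mouse. Its signals were 5.25, 4.81 and 4.98 in the Grsf1cKO mice and 4.71, 4.18 and 2.95 in the WT mice, so the size of its difference leaned on the low value of WT 3. The second probe of *Col9a1* gave -0.26, with the Grsf1cKO mice between 4.80 and 4.89 and the WT mice between 5.003 and 5.23. The arrays of WT 1 read 5.54 and 4.46 on this probe. The adjusted *p* of each of the 4 probes was 0.996 by limma, and the smallest *p* that an exact permutation of 3 against 3 mice can give is 0.1.

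Of the pairs examined, each of chains of the same fibril or molecule, some varied together over the 6 mice of both genotypes. Chains of different molecules were not paired, so the relation is not shown to be particular to partners. Over the 6 mice, Pearson's *r* between *Col1a1* and *Col3a1* was 0.977 (exact permutation *p* = 0.00139, 0.00972 after Benjamini-Hochberg adjustment over 7 pairs) and Spearman's rho was 1 (*p* = 0.00278, adjusted 0.0194). It was 0.873 without Grsf1cKO 3 and WT 1, the mice farthest from the median, and 0.988 on slide 2. Between *Col6a1* and *Col6a3*, *r* was 0.962 (exact permutation *p* = 0.00417, adjusted 0.0146; rho 0.943, *p* = 0.0167, adjusted 0.0583), 0.833 without the farthest mice and 0.965 on slide 2. Between *Col1a1* and *Col1a2*, *r* was 0.901 (exact permutation *p* = 0.0264, adjusted 0.0462; rho 0.886, *p* = 0.0333, adjusted 0.0778), 0.633 without the farthest mice and 0.913 on slide 2. Between *Col6a1* and *Col6a2*, *r* was 0.861 (exact permutation *p* = 0.0208, adjusted 0.0462; rho 0.714, *p* = 0.136, adjusted 0.191). This last relation rested on Grsf1cKO 3 and Grsf1cKO 2, since *r* was -0.252 without them; it was 0.859 on slide 2.

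The other 3 pairs examined had adjusted *p* values above 0.1. For *Col4a1* and *Col4a2*, *r* was 0.645 (exact permutation *p* = 0.135, adjusted 0.189; rho 0.829, *p* = 0.0583, adjusted 0.102), with 0.973 without the farthest mice and 0.535 on slide 2. For *Col5a1* and *Col5a2*, *r* was 0.647 (exact permutation *p* = 0.194, adjusted 0.227; rho 0.143, *p* = 0.803, adjusted 0.803), with 0.494 without the farthest mice and 0.563 on slide 2. For *Col8a1* and *Col8a2*, *r* was 0.309 (exact permutation *p* = 0.393, adjusted 0.393; rho 0.657, *p* = 0.175, adjusted 0.204), with 0.528 without the farthest mice and 0.361 on slide 2.

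**Figure D3:**
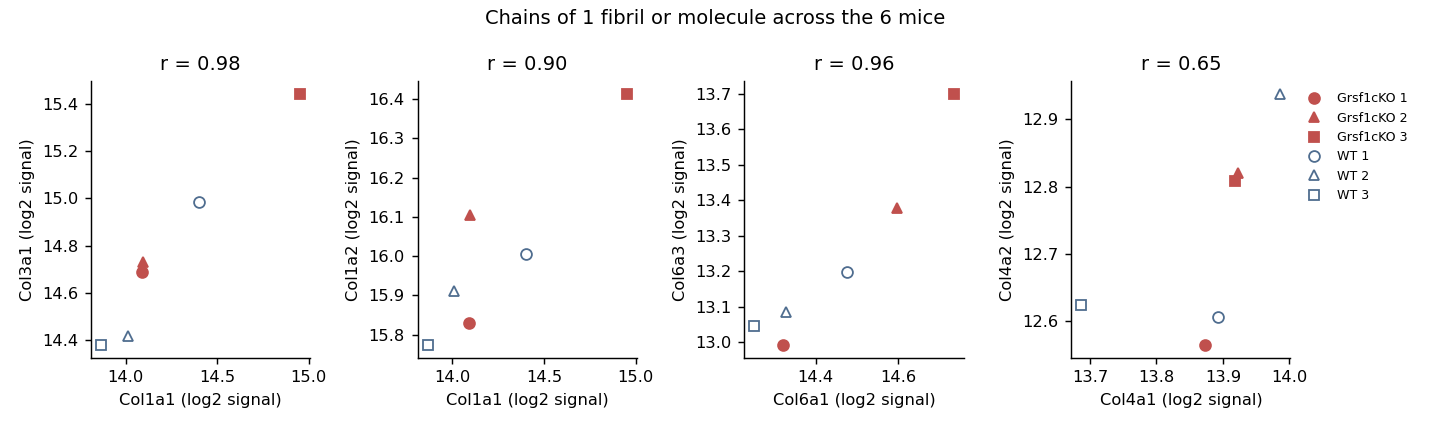
Log2 signals of 4 pairs of collagen genes in the 6 mice; filled symbols are Grsf1cKO mice, open symbols are WT mice, and Pearson's *r* stands above each panel. Grsf1cKO 3 lies at the upper right of the *Col1a1* and *Col6a1* panels, and the mice spread over a narrow range of signal in the *Col4a1* panel.

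Genes that act on collagens were examined from lists of the pathway. No list member was called changed. Among 27 tested genes of collagen synthesis, modification and crosslinking, the median log2 fold change was 0.02, and 1 had an unadjusted *p* under 0.05, *P4ha3*, a prolyl hydroxylase subunit (-0.41, adjusted *p* = 0.996). Its signals were 5.37, 5.15 and 4.96 in the Grsf1cKO mice and 5.76, 5.42 and 5.54 in the WT mice, without overlap. *P4ha2*, another such subunit, also did not overlap (-0.13).

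Among 13 tested genes of collagen breakdown and its inhibitors, the median was 0.07. *Mmp14*, a membrane-bound collagenase, was the one with an unadjusted *p* under 0.05. Its signals were 8.96, 9.30 and 9.31 in the Grsf1cKO mice and 8.85, 8.71 and 8.93 in the WT mice, without overlap (0.36, adjusted *p* = 0.996). Among 19 TGF-beta and profibrotic regulators (median 0.02), *Ltbp4*, which binds latent TGF-beta, had a difference of 0.09 without overlap. The 8 collagen receptors (median 0.01), the 18 fibril-associated matrix proteins (0.09) and the 10 basement membrane partners (0.07) held no gene with an unadjusted *p* under 0.05 and none without overlap. These counts were read against 1.29% higher and 2.96% lower at that *p*, and 3.08% and 6.27% without overlap, over all probes tested.

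Markers of the cells in the tissue were examined beside the collagens. The score of a list in a mouse is the mean over its genes of the log2 signal minus the WT mean. In the order of mice 1, 2 and 3, the fibrillar collagen score was 0.02, -0.04 and 0.46 for Grsf1cKO against 0.22, -0.13 and -0.09 for WT. The score of the 3 main type VI chains was -0.08, 0.24 and 0.51 against 0.06, -0.002 and -0.06. The macrophage score was -0.07, -0.009 and 0.89 against -0.06, 0.19 and -0.13. All 9 macrophage markers were above background in every mouse and all 9 were highest in Grsf1cKO 3, the mouse that was also highest for most fibrillar and type VI genes. The summed linear signal of the 9 markers was 64787 in that mouse, against 35132 and 36370 in the other Grsf1cKO mice and 33742 to 42080 in the WT mice. The part of the macrophage markers in the collagen values of Grsf1cKO 3 was not tested.

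Other lists varied in different ways. The score of fibroblast and fibro-adipogenic progenitor markers lay between -0.10 and 0.10 in all mice, with WT 1 at 0.10 and Grsf1cKO 3 at 0.08, and its summed signal was 349153 to 376276 in the Grsf1cKO mice and 358157 to 379088 in the WT mice. Grsf1cKO 3 had the highest score of the 6 mice for tendon markers (0.14 against -0.20 to 0.08 in the other mice) and for fibril-associated matrix proteins (0.32 against -0.09 to 0.11), and WT 1 was second for both, as for *Col1a1*. Adipocyte markers differed widely between mice within both genotypes, from -0.71 in WT 3 to 0.39 in WT 1. Scores of endothelial, pericyte and smooth muscle, Schwann cell and satellite cell markers had genotype differences of -0.04, -0.01, 0.09 and -0.005. No gene of these marker lists had an unadjusted *p* under 0.05, and *Myh2*, *Vwf* and *Cspg4* (higher) and *Myh4* and *Flt1* (lower) were those without overlap, by 0.19 or less in either direction.

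**Figure D4:**
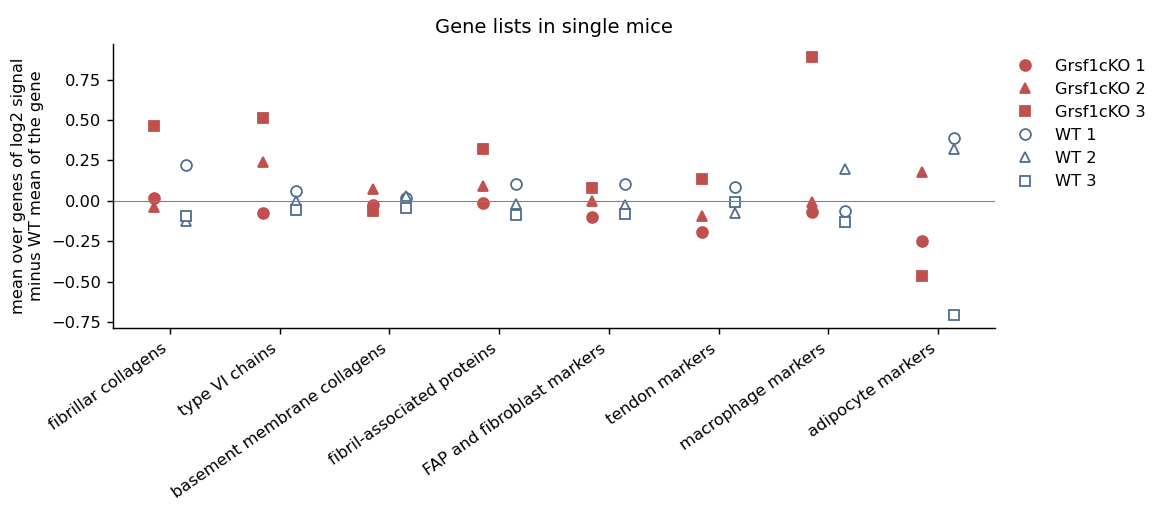
Score of 8 gene lists in each of the 6 mice, as the mean log2 signal of the genes of a list minus the WT mean; filled symbols are Grsf1cKO mice and open symbols are WT mice (FAP, fibro-adipogenic progenitor). Grsf1cKO 3 (filled squares) is at 0.46 for fibrillar collagens, 0.51 for type VI chains and 0.89 for macrophage markers, and at -0.06 for basement membrane collagens.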

How the data were processed

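RNA from 6 mice was measured on 8 Agilent 1-color arrays. The authors deposited, for each array, Feature Extraction output (version 12.0.3.1) with the intensity of every spot, and a table in which the score of each spot is a *z*-score. These scores equaled the log2 processed signal centred on the array mean and divided by the array SD within 0.005. According to the methods, intensities were quantile normalized and *z*-scores compared by *z*-test.

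From the processed signal, control spots were removed, outlier spots (non-uniform or population) became missing values, all arrays were quantile normalized together, and log2 values were averaged, first for each probe and then for each mouse. Genotypes were compared with limma 3.58.1 (R 4.3.3), 2-sided, genotype only, with Benjamini-Hochberg adjustment over all 38886 probes tested. Testing required a value in 2 or more mice per genotype and a signal well above background in 3 or more mice. The number of arrays limits the precision. Symbols came from RefSeq accessions (GRCm38.p6; 32994 probes matched); promoters are from RefSeq.

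Values per mouse are given for types I, III, V, IV, VI, XV and XVIII, for *Col12a1*, *Col14a1*, *Col13a1*, *Col22a1* and *Col25a1*, and for genes with an unadjusted *p* under 0.05 on any tested probe or without overlap; *Col26a1*, *Col28a1*, *Col8a1* and *Col2a1* were added after their values were seen. Members and lists were chosen with earlier results of these data known. *Lum*, *Fmod*, *Kera*, *Thbs4* and *Comp* are in 2 lists. Alternatives covered scaling, background correction, deposited scores, detection, repeat arrays, slide, replicate block, test, each mouse left out and the mean over a gene's probes; leaving out the repeat of Grsf1cKO 1 was chosen after seeing the data. One result for a member of a regulator list is not reported here. The scripts were tested on simulated data.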

Additional observations from a re-analysis of the deposited data

How the results depend on the processing

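No collagen probe was called under any alternative run. The count of collagen genes with an unadjusted *p* under 0.05, 1 higher and 0 lower, depended on the setting. It was 2 higher with 75th percentile scaling, the deposited *z*-scores, the first arrays, the *z*-test and without the repeat of Grsf1cKO 1 (*Col9a3* with *Col6a4*, or *Col16a1* for the *z*-test). It was 0 higher with normexp, with detection in all 6 mice, with the slide as a block and with an intensity trend. Leaving out each mouse gave 0 to 6 higher and 0 to 1 lower. The 6 came without Grsf1cKO 1, 5 of them beside *Col9a3*: *Col26a1* and *Col6a1* to *Col6a4*. Their adjusted *p* was 0.984. The 0 came without Grsf1cKO 2, and the 1 lower (*Col4a3*) without WT 1. The median of the other collagen genes, 0.19, was 0.11 with normexp and 0.070 to 0.20 with each mouse left out, lowest without Grsf1cKO 3. Over all alternatives the median of the fibrillar genes stayed positive (0.04 to 0.20), while that of the basement membrane genes ran from -0.04 to 0.09. The log2 fold change of *Col4a2*, 0.009, was -0.013 with 75th percentile scaling, -0.0071 with the *z*-scores and -0.0026 without the repeat of Grsf1cKO 1. With each mouse left out it ran from -0.049 to 0.12, that of *Col4a1* from -0.035 to 0.11 and that of *Col11a1* from -0.39 to 0.086. The cause was not tested. Scaling to the 75th percentile moved the median of all probes from -0.03 to 0.01 and the shares at an unadjusted *p* under 0.05 from 1.29% higher and 2.96% lower to 2.57% and 0.738%. Over all probes, 1 to 4 were called by limma and 379 by the *z*-test.

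With the replicate number as a replicate block, the median over the collagen genes stayed 0.13 with 0 probes called, and the gene at an unadjusted *p* under 0.05 was *Col6a5* (0.46) in place of *Col9a3*. Deviations of mice with the same number correlated at 0.232, 0.097 and 0.104, and those of mice with different numbers at -0.185 to 0.094. With the block, 6.20% of all probes had an unadjusted *p* under 0.05 by limma, against 4.25% without it. The main fit did not pair mice by number, and whether the number marks a shared effect was not tested. With 3 mice of each genotype, the 95% intervals of 21 collagen genes reached past a 1.5-fold change.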
